A study of Homo sapiens with 6 samples.

Results

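The genes described here are the DNA replication genes and E2F target genes of MDA-MB-231 cells: 53 genes that build, license, feed or repair the replication fork, named from textbook knowledge and grouped into 9 roles. No measured value entered the choice of a name, but the list was drawn up with earlier results of these arrays known. Each of the 53 had exactly 1 probe set, out of 15669 genes with a single symbol in the platform annotation and 16965 probe sets in all. MDA-MB-231 is an established triple-negative breast cancer line. The study compared 3 groups of 2 arrays each: cells carrying the lentiviral hairpin named shS100A10_1, cells carrying the hairpin named shS100A10_5, and control cells labelled shNCT. Every group grew in medium containing 10% serum, with puromycin present at 2.5 µg/ml, and received no other agent. The labels do not state that replicate arrays represent independently grown cells, nor whether the knockdown cells were a pool or a clone. Each p-value therefore reflects array-to-array spread that could be purely technical.

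Before a cell copies its DNA, the origin recognition complex, CDC6 and CDT1 load the MCM2 to MCM7 ring onto chromatin. CDC45 and the GINS complex then turn the ring into an active helicase. Primase starts each new strand and polymerases held by the PCNA clamp extend it, while FEN1 and LIG1 trim and join the lagging-strand pieces. Many of these genes are transcribed by E2F factors once cyclin-dependent kinases, cyclin E with CDK2 among them, have inactivated the retinoblastoma protein. S100A10, the gene the hairpins were named for, encodes a small S100 protein that pairs with annexin A2 at the cell surface.

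S100A10 read 1969 and 1545 intensity units on the shS100A10_1 arrays and 13565 and 9460 on the shS100A10_5 arrays, against 88860 and 92938 on the shNCT arrays. Its signal was thus 52.1-fold lower with shS100A10_1 (log2 change -5.70, SE 0.21, adjusted p = 1.71e-06) and 8.02-fold lower with shS100A10_5 (log2 change -3.00, SE 0.21, adjusted p = 0.000442). Intensity here is the deposited linear signal, and an adjusted p is limma's, after Benjamini-Hochberg adjustment over all 16965 probe sets; a gene is said to fall or rise only below 0.05. The median probe set lay between 232 and 238 units on every array. On the first principal component, with 45.2% of the variance, the shS100A10_5 arrays lay at 18.7 and 41.1, away from the other 4 arrays at -18.2 to -10.0. Of 8 mesenchymal markers of this line, SPARC alone averaged below the lower quartile of all probe sets, and VIM was at 16.5 on the log2 scale in shNCT. Of 7 luminal breast markers measured, CDH1 and FOXA1 lay below that quartile and the other 5 (KRT8, KRT18, KRT19, EPCAM and GATA3) above it. None of the 7 passed the threshold; EPCAM was higher without overlap with both hairpins, by log2 changes of 0.63 with shS100A10_1 and 0.72 with shS100A10_5, and KRT19 had -0.81 with shS100A10_5. The receptor genes ESR1, PGR and ERBB2 were not analysed here. With 7 markers measured, summed leukocyte signal was 7720 to 8214 with shS100A10_1 and 4822 to 6214 with shS100A10_5, against 6706 to 6931 in shNCT. Nearly all of that sum was CD68, with 7805 and 7313 units with shS100A10_1 and 5755 and 4354 with shS100A10_5, against 6524 and 6286 in shNCT; CD79A had a log2 change of 0.61 with shS100A10_5, and no leukocyte marker passed the threshold. The 6 fibroblast markers measured, 3 of them below the lower quartile, summed to 184 and 184 with shS100A10_1 and 231 to 235 with shS100A10_5, against 161 to 163 in shNCT. The part of either list in the results that follow was not tested.

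Replication genes read lower with shS100A10_5. The 7 genes that fell were E2F1, MCM6, GINS1, PRIM1, RFC2, LIG1 and TK1, which is 13.2% of the 53, against 1.75% of all probe sets that fell in the same comparison. None of the 53 rose by limma's adjusted p, against 1.43% of all probe sets, and RFC1 was the only one higher at an unadjusted p under 0.05, against 10.7% of all probe sets. At that unadjusted level 28 of the 53 (52.8%) were lower, against 10.3% of all probe sets. The 53 were brighter than most: 49 averaged above the median probe set and all 53 above the lower quartile. Among the 12724 probe sets above that quartile, 12.6% were lower at the same level. In 37 of the 53 both shS100A10_5 arrays lay below both shNCT arrays, against 23.8% of all probe sets, and 42 had a negative change, against 46.7% of all probe sets. The median log2 change over the 53 was -0.42, against 0.02 over all probe sets. The count of 7 rested on few arrays: it was 0 without replicate 2 of shS100A10_5, 0 without either shNCT array, 6 without either shS100A10_1 array, and 11 without replicate 1 of shS100A10_5, of which 4 were among the 7. Over the same 6 omissions the median stayed between -0.45 and -0.41, and 22 to 27 genes were lower at an unadjusted p under 0.05. In RNA from whole cultures, fewer cells copying their DNA and less of each RNA per cell cannot be told apart.

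With shS100A10_1 no replication gene passed the adjusted threshold in either direction, where 0.0884% of all probe sets fell and 0.1% rose. By limma's unadjusted p under 0.05, 4 of the 53 were lower, against 4.16% of all probe sets, and none was higher, against 4.28%. In 22 of the 53 both shS100A10_1 arrays lay below both shNCT arrays, against 20.5% of all probe sets, and 37 had a negative change, against 49%. Their median log2 change was -0.11, against 0.01 over all probe sets. It was -0.04 without replicate 1 and -0.18 without replicate 2 of shS100A10_1, so its size hung on which array was kept. The S100A10 signal of shS100A10_5 exceeded that of shS100A10_1 by a log2 difference of 2.70 (SE 0.21, adjusted p = 0.00102), so the hairpin with the lower S100A10 signal was the one whose replication-gene median lay nearer 0.

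**Figure D1:**
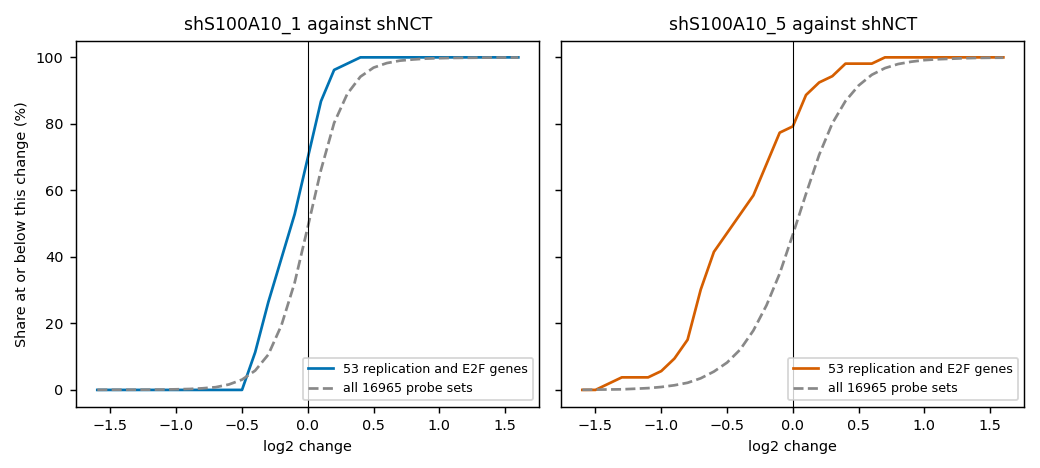
Cumulative share (vertical axis, percent) of genes at or below each log2 change (horizontal axis) for the 53 replication and E2F genes (solid line) and all 16965 probe sets (dashed line), with shS100A10_1 on the left and shS100A10_5 on the right. With shS100A10_5 the solid line lies to the left of the dashed one, around medians of -0.42 and 0.02.

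**Figure D2:**
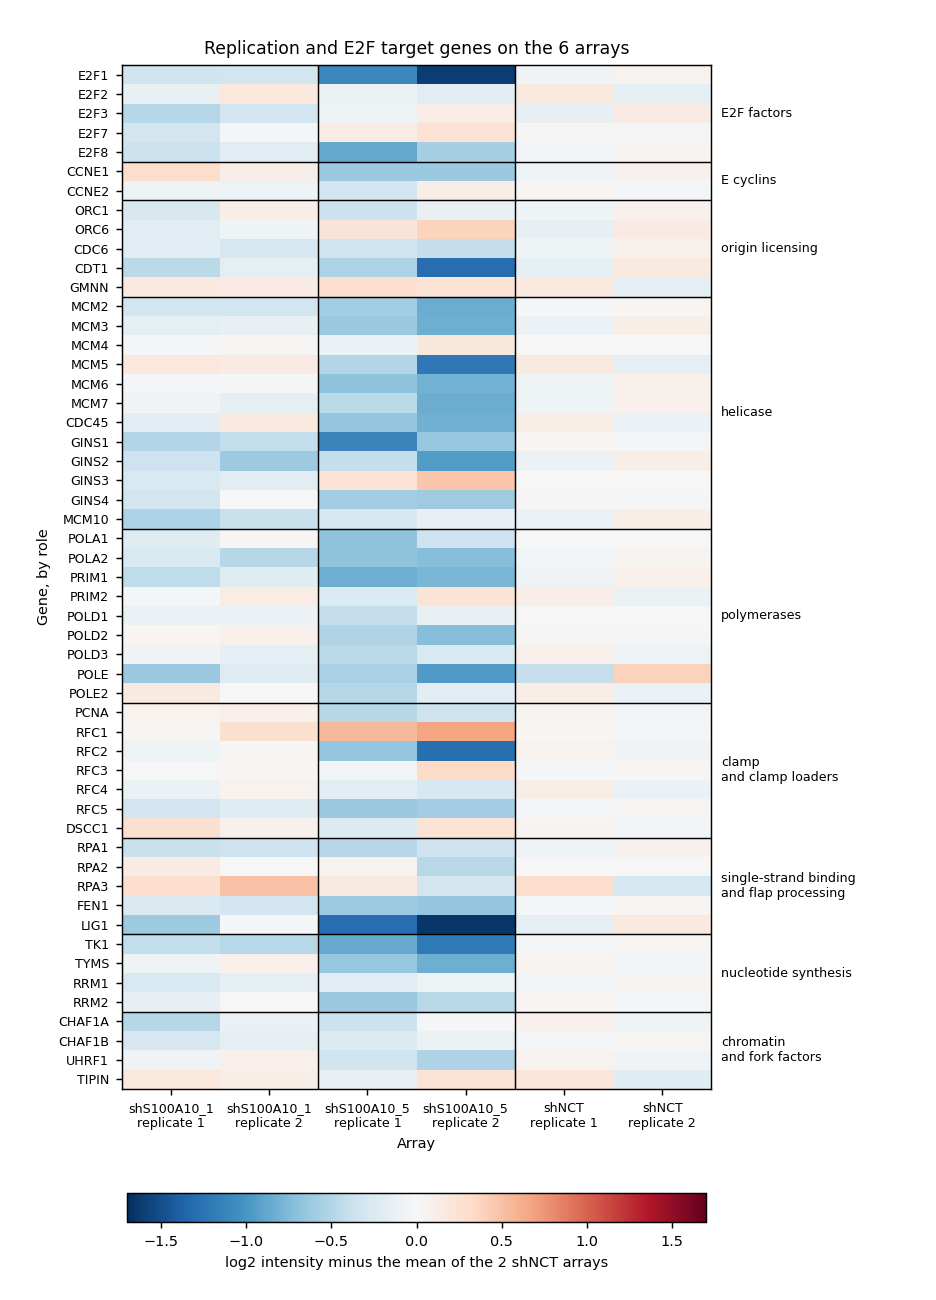
Log2 intensity of each of the 53 genes on each of the 6 arrays, minus that gene's mean over the 2 shNCT arrays; blue is lower and red is higher. Rows are genes grouped by role, and blue is deepest in the shS100A10_5 columns for E2F1, LIG1, RFC2, CDT1, MCM5 and TK1.

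Among the E2F factors, only E2F1 fell. E2F1, the activator that drives many S-phase genes, had 1666 and 1697 units with shS100A10_1 and 984 and 691 with shS100A10_5, against 2019 and 2199 in shNCT. Both hairpin groups lay below shNCT without overlap, and shS100A10_5 lay lowest. With shS100A10_5, E2F1 was 2.56-fold lower (log2 change -1.35, SE 0.20, adjusted p = 0.0107), whereas with shS100A10_1 the change was -0.33 (adjusted p = 0.733). E2F8, an atypical E2F that represses transcription, read 2503 and 2824 units with shS100A10_1 and 1774 and 2184 with shS100A10_5, against 3141 and 3331 in shNCT. The 3 pairs did not overlap, with shS100A10_5 lowest, but the change of -0.72 (SE 0.18) with shS100A10_5 missed the threshold at an adjusted p of 0.0619. E2F3, another activator, had 694 and 774 units with shS100A10_1 and 921 and 1053 with shS100A10_5, against 877 and 1069 in shNCT. Only the shS100A10_1 arrays stood below the control, at a log2 change of -0.40 (SE 0.18, adjusted p = 0.599), and with shS100A10_5 it was 0.03. E2F7, the other atypical repressor, had a log2 change of 0.18 with shS100A10_5, and E2F2, dim on every array at 44.3 to 57.1 units, had -0.14.

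The E cyclins, which activate CDK2 at the start of S phase, differed from each other. CCNE1 read 676 and 587 units with shS100A10_1 and 352 and 355 with shS100A10_5, against 521 and 575 in shNCT. It was therefore highest with shS100A10_1 and lowest with shS100A10_5, with no overlap among the groups. Neither contrast with shNCT passed the threshold: the log2 change was 0.20 with shS100A10_1 (SE 0.17, adjusted p = 0.827) and -0.63 with shS100A10_5 (SE 0.17, adjusted p = 0.075). CCNE2 had 2583 and 2588 units with shS100A10_1 and 2191 and 2973 with shS100A10_5, against 2784 and 2710 in shNCT, so the shS100A10_5 pair spanned the control.

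None of the 5 origin-licensing genes passed the threshold with either hairpin, and their median log2 change with shS100A10_5 was -0.25. CDT1, which brings the MCM ring to the origin, read 383 and 468 units with shS100A10_1 and 365 and 214 with shS100A10_5, against 466 and 591 in shNCT. The shS100A10_5 arrays were far apart, replicate 2 being the lower, and the change of -0.91 had an SE of 0.26 and an adjusted p of 0.082. CDC6, the loading factor, had 10653 and 9913 units with shS100A10_1 and 9541 and 9101 with shS100A10_5, against 11441 and 12692 in shNCT. All 4 hairpin arrays lay below both controls, by a log2 change of -0.23 with shS100A10_1 (adjusted p = 0.785) and -0.37 with shS100A10_5 (adjusted p = 0.244). ORC1, a subunit of the origin recognition complex, had a log2 change of -0.25 with shS100A10_5. ORC6, another subunit, pointed the other way at 0.30, as did GMNN, whose product geminin holds CDT1 inactive, at 0.26.

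The replicative helicase was the role with the lowest median with shS100A10_5, a log2 change of -0.70 over 12 genes, of which 9 were lower at an unadjusted p under 0.05 and 2, MCM6 and GINS1, fell; over all probe sets the shares were 10.3% and 1.75%. Within the MCM2 to MCM7 ring, 5 of 6 subunits read lower on both shS100A10_5 arrays than on both shNCT arrays, as did 23.8% of all probe sets. MCM6 had 887 and 881 units with shS100A10_1 and 560 and 519 with shS100A10_5, against 853 and 956 in shNCT. The shS100A10_1 pair sat inside the control range while the shS100A10_5 pair lay below it, a log2 change of -0.74 (SE 0.17, adjusted p = 0.046); with shS100A10_1 it was -0.03. This call was the least stable of the 7, made in 5 of 16 alternative analyses and lost without any single array, at adjusted p-values of 0.0509 to 0.277. MCM5 read 1936 and 1170 units with shS100A10_5, against 3021 and 2453 in shNCT. Its arrays did not overlap but spread widely, and the change of -0.86 (SE 0.24) came to an adjusted p of 0.0798. MCM2 had 935 and 790 units with shS100A10_5, against 1383 and 1444 in shNCT (log2 change -0.72, adjusted p = 0.0532). MCM3 and MCM7 had log2 changes of -0.73 and -0.65, at adjusted p = 0.0524 and 0.0889. MCM4 was the exception in the ring, at 7992 and 9758 units with shS100A10_5, against 8625 and 8531 in shNCT, a pair that spanned the control (log2 change 0.04).

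The factors that activate the ring followed a similar split. GINS1 read 2679 and 2828 units with shS100A10_1 and 1748 and 2432 with shS100A10_5, against 3893 and 3688 in shNCT. All 4 hairpin arrays were below both controls; the log2 change was -0.88 with shS100A10_5 (SE 0.20, adjusted p = 0.0438) and -0.46 with shS100A10_1 (adjusted p = 0.555). CDC45 had 915 and 817 units with shS100A10_5, against 1564 and 1326 in shNCT, without overlap (log2 change -0.74, adjusted p = 0.068). GINS2 and GINS4 had log2 changes of -0.68 and -0.59 with shS100A10_5, at adjusted p = 0.112 and 0.0967. GINS3, the remaining subunit of the 4-part GINS complex, read 1476 and 1727 units with shS100A10_5, against 1257 and 1243 in shNCT. Both of its shS100A10_5 arrays lay above the control, a log2 change of 0.35 with an adjusted p of 0.273. MCM10, a helicase cofactor, was instead lowest with shS100A10_1, at 218 and 243 units there and 260 and 288 with shS100A10_5, against 292 and 341 in shNCT. Its changes of -0.45 with shS100A10_1 and -0.21 with shS100A10_5 had adjusted p-values of 0.506 and 0.556.

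**Figure D3:**
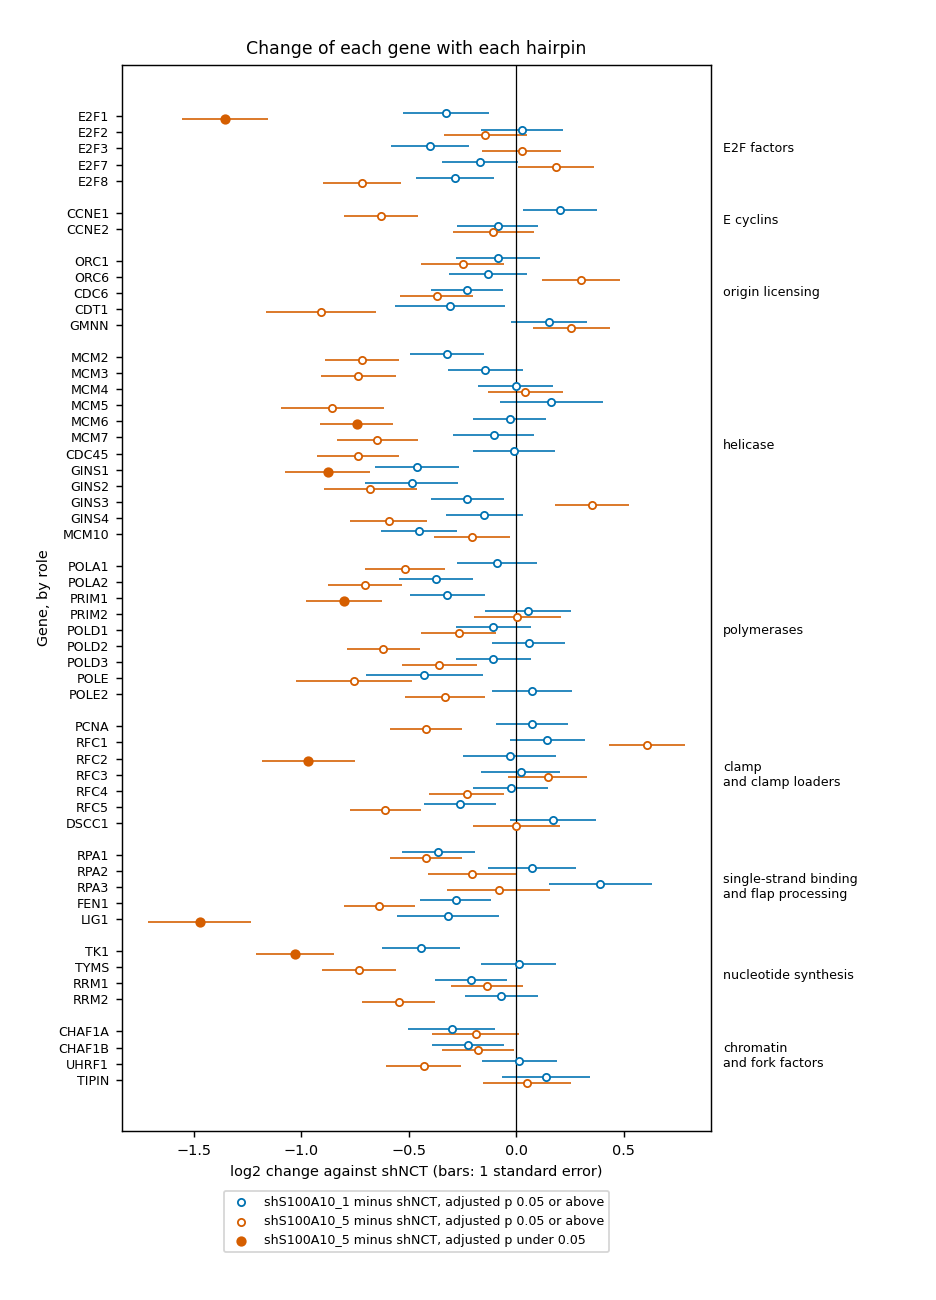
Log2 change against shNCT (horizontal axis) with 1 standard error for each gene, grouped by role, with shS100A10_1 in blue above shS100A10_5 in orange; filled points passed an adjusted p of 0.05. The 7 filled points, all for shS100A10_5, lie between -1.47 for LIG1 and -0.74 for MCM6.

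Of 9 polymerase and primase genes, PRIM1 fell with shS100A10_5, as did 1.75% of all probe sets. The median over the 9 was -0.52 there, and 8 had a negative change, against 46.7% of all probe sets. PRIM1, the catalytic primase subunit that starts each new strand with RNA, read 1312 and 1539 units with shS100A10_1 and 1002 and 1034 with shS100A10_5, against 1675 and 1880 in shNCT. The 3 pairs were separate, with shS100A10_5 lowest; the log2 change was -0.80 with shS100A10_5 (SE 0.17, adjusted p = 0.0414) and -0.32 with shS100A10_1 (adjusted p = 0.682). POLA2, the regulatory subunit of polymerase alpha, had 433 and 372 units with shS100A10_1 and 324 and 314 with shS100A10_5, against 503 and 535 in shNCT. Its pairs were separate in the same order, with a log2 change of -0.70 and an adjusted p of 0.0557 for shS100A10_5. PRIM2, the partner of PRIM1, read 2702 and 3731 units with shS100A10_5, against 3419 and 2930 in shNCT, a pair wider than the control and spanning it. POLD2, a subunit of polymerase delta, had 7095 and 6119 units with shS100A10_5, against 10248 and 9992 in shNCT (log2 change -0.62, adjusted p = 0.0765). POLA1, POLD1, POLD3, POLE and POLE2 had log2 changes between -0.76 for POLE and -0.27 for POLD1, none of which passed the threshold; POLD1 was dim on every array.

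The clamp loader was mixed. RFC2, a small loader subunit, read 2223 and 2386 units with shS100A10_1 and 1492 and 971 with shS100A10_5, against 2443 and 2267 in shNCT. The shS100A10_1 arrays overlapped the control and the shS100A10_5 arrays lay below every other array, a log2 change of -0.97 (SE 0.22, adjusted p = 0.0438). RFC5, another small subunit, had 6378 and 6946 units with shS100A10_1 and 5147 and 5323 with shS100A10_5, against 7842 and 8124 in shNCT. Its pairs did not overlap, and the change with shS100A10_5 was -0.61 (SE 0.17, adjusted p = 0.0749). RFC1, the large subunit, pointed the other way, at 1982 and 2364 units with shS100A10_1 and 2863 and 3110 with shS100A10_5, against 2007 and 1911 in shNCT. Its shS100A10_5 arrays were above the other 4, by a log2 change of 0.61 against shNCT (SE 0.17, adjusted p = 0.0867). PCNA, the sliding clamp, had 10696 and 11711 units with shS100A10_5, against 15439 and 14524 in shNCT, without overlap but at an adjusted p of 0.184 (log2 change -0.42). RFC3, RFC4 and DSCC1, a subunit of an alternative loader, had log2 changes of 0.15, -0.23 and 0.00 with shS100A10_5.

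LIG1 had the lowest log2 change of the 53. LIG1, the ligase that seals lagging-strand fragments, read 208 and 315 units with shS100A10_1 and 130 and 102 with shS100A10_5, against 283 and 359 in shNCT. The shS100A10_1 arrays overlapped the control, while both shS100A10_5 arrays were below all others. It was 2.78-fold lower with shS100A10_5 (log2 change -1.47, SE 0.24, adjusted p = 0.0145), and its change with shS100A10_1 was -0.32 (adjusted p = 0.793). FEN1, the nuclease that cuts the flaps LIG1 then closes, had 12364 and 11729 units with shS100A10_1 and 9581 and 9247 with shS100A10_5, against 14328 and 14961 in shNCT. Its 3 pairs were separate and tight, with a log2 change of -0.64 (SE 0.16, adjusted p = 0.0659) for shS100A10_5. RPA1, the large subunit that coats single-stranded DNA, read 9356 and 9532 units with shS100A10_1 and 8689 and 9478 with shS100A10_5, against 11495 and 12818 in shNCT. Both hairpin groups lay below the control to a like degree, -0.36 and -0.42, with adjusted p-values of 0.608 and 0.19. RPA2 and RPA3, its smaller partners, had log2 changes of -0.21 and -0.08 with shS100A10_5, where their arrays overlapped the control.

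All 4 nucleotide-synthesis genes were lower on both shS100A10_5 arrays than on both controls, as were 23.8% of all probe sets, and TK1 fell, as did 1.75%. TK1, the S-phase kinase that salvages thymidine, read 12809 and 12305 units with shS100A10_1 and 9415 and 7410 with shS100A10_5, against 16609 and 17492 in shNCT. Both hairpin groups stood below shNCT, shS100A10_5 the lower. The fold was 2.04 lower with shS100A10_5 (log2 change -1.03, SE 0.18, adjusted p = 0.0217), and the log2 change with shS100A10_1 was -0.44 (adjusted p = 0.539). TYMS, which makes thymidylate and is the target of fluorouracil, had 20686 and 23057 units with shS100A10_1 and 13919 and 12248 with shS100A10_5, against 22294 and 21084 in shNCT. Only the shS100A10_5 pair lay apart from the control, at a log2 change of -0.73 (SE 0.17, adjusted p = 0.0508), just outside the threshold. The ribonucleotide reductase subunits RRM2 and RRM1 had log2 changes of -0.55 (adjusted p = 0.105) and -0.13 (adjusted p = 0.696) with shS100A10_5.

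None of the 4 chromatin and fork factors passed the threshold with either hairpin. UHRF1, which carries DNA methylation through replication, read 2857 and 3167 units with shS100A10_1 and 2357 and 2073 with shS100A10_5, against 3120 and 2846 in shNCT. Its shS100A10_5 arrays were below the other 4, at a log2 change of -0.43 (SE 0.17, adjusted p = 0.191). The histone chaperone subunit CHAF1A had 506 and 656 units with shS100A10_1 and 553 and 701 with shS100A10_5, against 746 and 676 in shNCT. Its partner CHAF1B had 4641 and 5099 units with shS100A10_1 and 4831 and 5230 with shS100A10_5, against 5601 and 5762 in shNCT. For CHAF1B both hairpin groups were below the control, whereas for CHAF1A the shS100A10_5 pair overlapped it; all of their adjusted p-values were 0.599 or higher. TIPIN, a fork protection factor, had a log2 change of 0.05 with shS100A10_5.

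**Figure D4:**
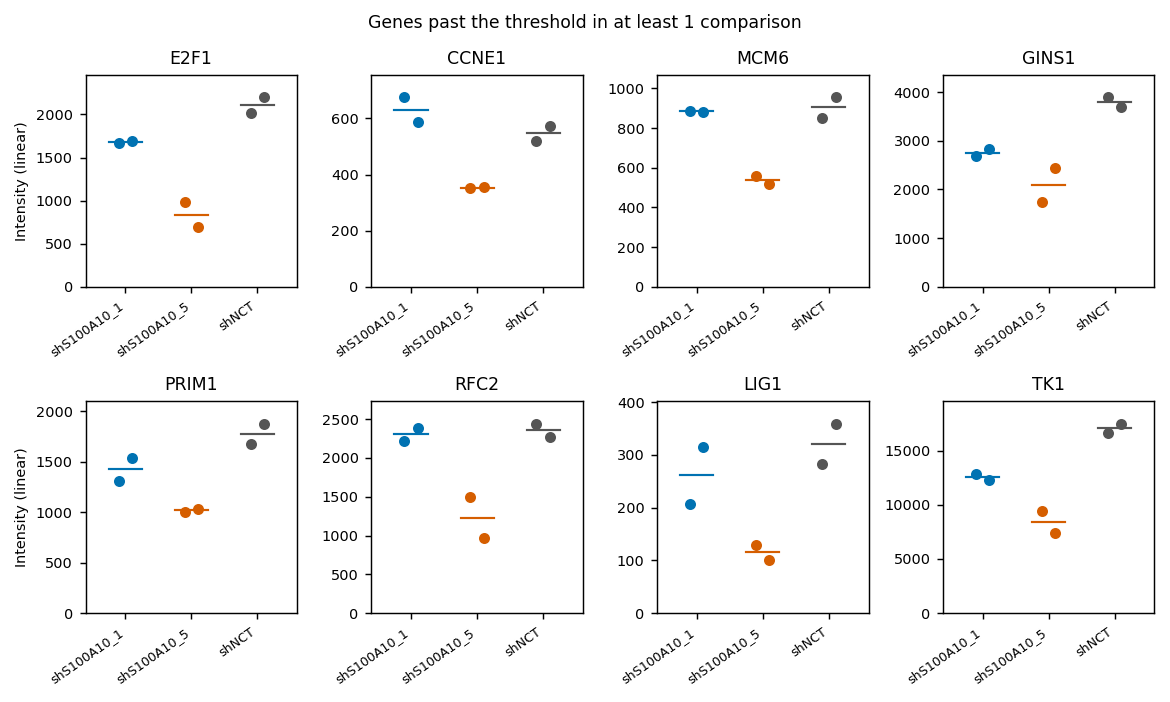
Intensity (vertical axis, linear, starting at 0) of the 8 genes past an adjusted p of 0.05 in at least 1 comparison, on the 2 arrays of shS100A10_1, shS100A10_5 and shNCT; lines are group means. In every panel the shS100A10_5 points lie lowest, for E2F1 at 984 and 691.

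The hairpins were also set against each other directly. Of the 53 genes, 4 were lower with shS100A10_5 than with shS100A10_1 after adjustment, against 1.48% of all probe sets, and none was higher, against 1.43%. They were E2F1 (log2 difference -1.03, SE 0.20, adjusted p = 0.0275), LIG1 (-1.16, SE 0.24, adjusted p = 0.0344), CCNE1 (-0.83, SE 0.17, adjusted p = 0.0354) and RFC2 (-0.94, SE 0.22, adjusted p = 0.0496). The count lay between 0 and 3 when single arrays were left out, 0 without replicate 2 of either hairpin, 1 without replicate 1 of shS100A10_1, 2 without either shNCT array and 3 without replicate 1 of shS100A10_5. At an unadjusted p under 0.05, 21 genes were lower with shS100A10_5, against 9.8% of all probe sets, and 4 were higher, against 10.1%. Both shS100A10_5 arrays lay below both shS100A10_1 arrays in 31 genes, against 23.4% of all probe sets, and 41 differences were negative, against 48%. The median difference was -0.33. MCM5 (-1.02, adjusted p = 0.0518), TYMS (-0.74, adjusted p = 0.051) and MCM6 (-0.71, adjusted p = 0.0532) lay just outside the threshold. For TK1, GINS1 and PRIM1, which fell with shS100A10_5 against shNCT, the difference between the hairpins was -0.59, -0.42 and -0.48 and did not pass (adjusted p = 0.112, 0.271 and 0.167). The contrasts of the hairpins with shNCT share the control arrays, so they are not independent of each other.

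**Figure D5:**
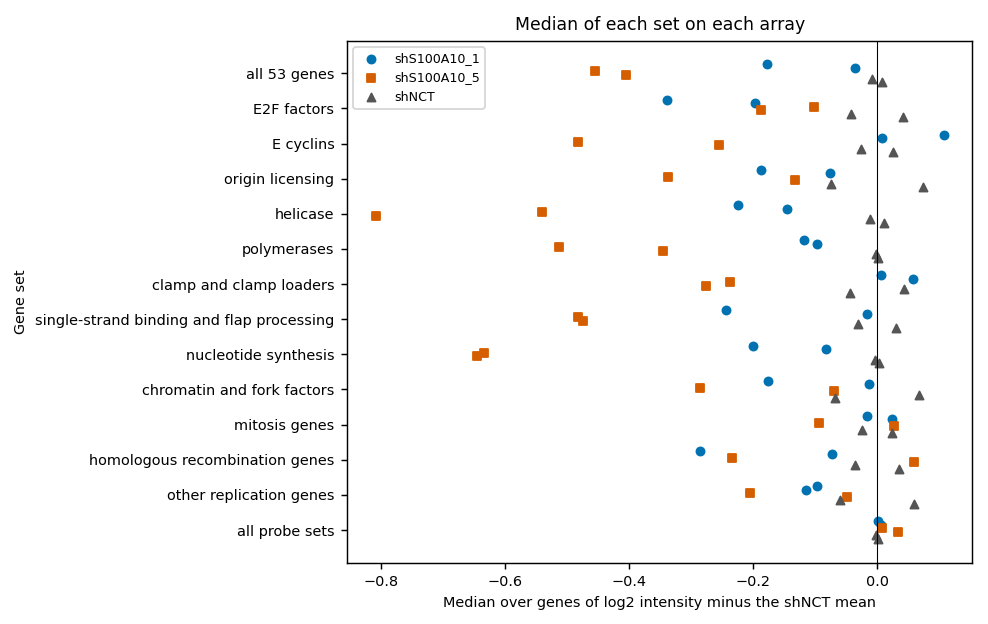
Median over the genes of each role, and of 3 lists of other genes and all probe sets, of log2 intensity minus the shNCT mean (horizontal axis) on each array, with shS100A10_1 as circles, shS100A10_5 as squares and shNCT as triangles. For all 53 genes the shS100A10_5 arrays lie at -0.45 and -0.41 and the shS100A10_1 arrays at -0.18 and -0.04.

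Both shS100A10_5 arrays carried the shift. The median of the 53 genes, relative to the mean of the shNCT arrays, was -0.18 and -0.04 on the shS100A10_1 arrays and -0.45 and -0.41 on the shS100A10_5 arrays, against -0.01 and 0.01 on the shNCT arrays. Single genes were less even: RFC2, CDT1 and MCM5 were lower on replicate 2 and GINS1 on replicate 1 of shS100A10_5. Longer genes tended to read higher on replicate 2 of shS100A10_5, with a Spearman correlation between genomic span and change of 0.22 across 15674 probe sets and 0.28 across the 53 genes; on replicate 1 these were 0.08 and 0.13. Across the 53 genes the same correlation was -0.02 and 0.17 on the shS100A10_1 arrays and 0.19 and -0.19 on the shNCT arrays. For medians and correlations alike, the 2 shNCT values mirror each other by construction, since the mean of those arrays was the reference. These are descriptions across genes of the same arrays, not tests. With the trend on span removed, the same 7 genes fell with shS100A10_5 and the median was -0.49.

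Many of these genes are known E2F targets, and their promoters were read for the E2F letters TTTCCCGC, TTTCGCGC, TTTGCCGC and TTTGGCGC on either strand, in RefSeq windows of GRCh38.p14 with 250 bases before and 50 after each transcript start. A window was given for 44 of the 53 genes, and 23 of the 44 (52.3%) held at least 1 match, against 5.53% of 12728 genes on the array with a window and 3.99% of 27305 genes in the table. In a shorter window of 150 bases, also ending 50 bases after the start, the shares were 47.7%, 2.86% and 2.07%. The genes were named for replication and E2F control, so this share is not independent of how they were chosen. The shorter motif CCAAT, on either strand, was in 63.6% of the 44 genes, against 42.6% of the array's genes. The median log2 change with shS100A10_5 was -0.65 in the 23 genes with an E2F match, -0.27 in the 21 with a window and no match, and -0.21 in the 9 with no window, a description with no test. Of the 7 genes that fell, E2F1, MCM6, GINS1 and LIG1 had a match and are given here as 200 bases before and 20 after the start, 5′ to 3′ on the gene's strand, with the E2F letters in capitals. E2F1 lies at chr20:33686366-33686585 on the minus strand, MCM6 at chr2:135876424-135876643 on the minus strand, GINS1 at chr20:25407473-25407692 on the plus strand and LIG1 at chr19:48170325-48170544 on the minus strand.
E2F1: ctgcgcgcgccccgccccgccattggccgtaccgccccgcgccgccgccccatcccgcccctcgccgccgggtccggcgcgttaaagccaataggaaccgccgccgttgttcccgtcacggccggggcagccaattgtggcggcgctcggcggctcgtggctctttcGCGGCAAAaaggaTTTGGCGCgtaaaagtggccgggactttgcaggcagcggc
MCM6: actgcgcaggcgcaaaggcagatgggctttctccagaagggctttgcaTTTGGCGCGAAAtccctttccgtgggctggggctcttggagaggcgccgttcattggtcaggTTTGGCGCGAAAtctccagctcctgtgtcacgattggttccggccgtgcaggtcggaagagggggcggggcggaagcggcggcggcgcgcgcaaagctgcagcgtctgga
GINS1: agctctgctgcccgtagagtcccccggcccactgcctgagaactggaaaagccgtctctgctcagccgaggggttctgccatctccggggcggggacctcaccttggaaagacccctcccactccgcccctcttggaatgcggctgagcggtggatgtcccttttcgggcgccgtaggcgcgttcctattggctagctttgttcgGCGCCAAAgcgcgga
LIG1: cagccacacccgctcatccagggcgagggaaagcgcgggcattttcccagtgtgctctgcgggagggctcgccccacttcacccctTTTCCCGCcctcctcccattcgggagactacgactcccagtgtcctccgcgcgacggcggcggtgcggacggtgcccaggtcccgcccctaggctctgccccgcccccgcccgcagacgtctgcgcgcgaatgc
E2F1 showed a pair of matches close to the start, on opposite strands, in the promoter of a factor that acts through such letters. MCM6 carried 2 copies of an overlapping pair, in which 12 letters hold a match on each strand. LIG1 had a single match further upstream, and GINS1 a single match just inside the transcript. The letters are a match in sequence and no measure of binding; nothing follows from the windows of TK1, PRIM1 and RFC2, which held none of these letters.

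Other genes of the pathway, from lists outside the 53, had medians nearer 0 with shS100A10_5. Of 31 further replication genes measured, 2 fell and none rose, against 1.75% and 1.43% of all probe sets, with a median log2 change of -0.22. At an unadjusted p under 0.05, 9 of the 31 were lower and 2 higher, against 10.3% and 10.7%. The 2 that fell were subunits of RNase H2, which removes RNA from DNA. RNASEH2A had 10003 and 9105 units with shS100A10_1 and 6377 and 3975 with shS100A10_5, against 10841 and 11310 in shNCT. RNASEH2C had 1845 and 1737 units with shS100A10_1 and 1256 and 1032 with shS100A10_5, against 2305 and 2576 in shNCT. In both genes the shS100A10_5 arrays were the lowest of the 6, with log2 changes of -1.14 (SE 0.22, adjusted p = 0.0329) and -1.10 (SE 0.18, adjusted p = 0.0151). Of 16 further nucleotide-supply genes, DTYMK, the kinase acting after TK1 and TYMS, fell alone, at 203 and 183 units with shS100A10_5, against 452 and 386 in shNCT (log2 change -1.12, SE 0.18, adjusted p = 0.0148). At an unadjusted p under 0.05, 5 of these 16 were lower and 1 higher, against 10.3% and 10.7% of all probe sets. The median over the 16 was -0.03.

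Of 28 genes of RB and E2F control, CDKN1A fell with shS100A10_5 and none rose, against 1.75% and 1.43% of all probe sets. At an unadjusted p under 0.05, 5 of the 28 were lower and 5 higher, against 10.3% and 10.7%. The median over the 28 was -0.10. CDKN1A, which encodes the CDK inhibitor p21, had 1974 and 1475 units with shS100A10_1 and 456 and 345 with shS100A10_5, against 1130 and 1218 in shNCT. The groups did not overlap and lay on either side of the control, with a log2 change of -1.57 with shS100A10_5 (SE 0.21, adjusted p = 0.00902) and 0.54 with shS100A10_1 (adjusted p = 0.505). Between the hairpins CDKN1A differed by -2.11 (adjusted p = 0.00261), shS100A10_5 being lower. CCND2, a D cyclin, read 414 and 507 units with shS100A10_5 and 242 and 208 with shS100A10_1, against 360 and 272 in shNCT. Between the hairpins it was higher with shS100A10_5 by a log2 difference of 1.03 (SE 0.20, adjusted p = 0.0284). Neither contrast of CCND2 with shNCT passed, at 0.55 with shS100A10_5 (adjusted p = 0.154) and -0.48 with shS100A10_1 (adjusted p = 0.555).

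Mitosis and repair genes were measured for comparison. Of 30 mitosis genes, UBE2C, a ubiquitin-conjugating enzyme of the anaphase-promoting complex, fell with shS100A10_5 (log2 change -0.76, SE 0.17, adjusted p = 0.0425), as did 1.75% of all probe sets. The median over the list was -0.05. At an unadjusted p under 0.05, 3 of the 30 were lower and 3 higher, against 10.3% and 10.7% of all probe sets. Of 15 homologous recombination genes, XRCC3 fell (log2 change -0.71, SE 0.16, adjusted p = 0.0486), as did 1.75% of all probe sets, and the median was -0.19. Lower at an unadjusted p under 0.05 were 4 of the 15 (26.7%), and none was higher, against 10.3% and 10.7% of all probe sets. With shS100A10_1 none of the genes on these 5 lists passed the threshold, and by limma's unadjusted p under 0.05 between 0 and 2 genes of each list were lower, against 4.16% of all probe sets. Whether the 53 genes and these lists differed in their shift was not tested.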

How the data were processed

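Total RNA of 6 MDA-MB-231 samples was hybridised to expression arrays. The deposited values are linear intensities per probe set, already normalized by the authors: Transcriptome Analysis Console is named in the submitters' processing notes, and neither its version nor its normalization method is stated there. No detection calls were used, and 1291 of 16965 probe sets had no single gene symbol. Intensities were turned to log2 and fitted over all 3 groups in limma 3.58.1 (R 4.3.3, lmFit and eBayes), with Benjamini-Hochberg adjustment over all probe sets; 3 residual and 7.16 prior degrees of freedom limited the precision. The test was checked on simulated arrays with independent normal noise of the same spread in every group. That check does not cover real arrays whose groups differ in spread. Genes described with all their values were those past an adjusted p of 0.05 in any comparison, those with the 2 smallest p-values per role with shS100A10_5 and the smallest with shS100A10_1; others were added for the sister subunits of a complex. The members and lists were chosen with earlier results of these data known. Alternatives covered normalization, the spread model, filters, blocks and single arrays.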

Additional observations from a re-analysis of the deposited data

Results flagged for a closer look

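The responses of 4 genes differed between the hairpins by limma's test of that difference. With shS100A10_5 minus shS100A10_1, the log2 difference was -1.03 for E2F1, -0.83 for CCNE1, -0.94 for RFC2 and -1.16 for LIG1, at adjusted p-values of 0.0275, 0.0354, 0.0496 and 0.0344. Each was lower on 2 of 2 shS100A10_5 arrays than on both shS100A10_1 arrays. The adjusted p of RFC2 was closest to the threshold. Of 16 alternative analyses, the call was made in 13 for E2F1, 8 for CCNE1, 5 for RFC2 and 12 for LIG1. In that order, the 4 differences were -0.77, -0.84, -0.63 and -0.98 without replicate 2 of shS100A10_5. Without replicate 2 of shS100A10_1 they were -1.02, -0.94, -0.89 and -0.85.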

How the results depend on the processing

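The sign of each of the 8 genes that passed the threshold was kept, in the comparison where it passed, under all 16 alternatives. The count of genes past the threshold with shS100A10_5 against shNCT, 7, was 24 with an intensity trend in the spread (23 lower, and RFC1 higher), 17 with dim probe sets left out, 22 at an adjusted p under 0.1, 3 with array weights, and 0 to 11 without single arrays. Over all probe sets the share that fell also moved. It was 1.75% in the main fit, 4.55% with the trend, 4.24% without dim probe sets and 0.772% with array weights. The median of the 53 genes with shS100A10_5, -0.42, was -0.49 with the span trend removed. Between the hairpins the count, 4, was 14 with the trend, 9 with dim probe sets left out, 9 at an adjusted p under 0.1, 2 with only the 2 groups compared, 1 with array weights, and 0 to 3 without single arrays. Between the hairpins the share of all probe sets that were lower was 1.48% in the main fit. It was 3.61% with the trend, 3.28% without dim probe sets, 0.872% with only the 2 groups compared and 0.861% with array weights. The median with shS100A10_1 ran between -0.18 and -0.036 without single arrays. A replicate block gave counts of 0 with shS100A10_1, 6 with shS100A10_5 and 5 between the hairpins. Whether replicate numbers pair samples across groups is not known. Deviations of replicate 1 correlated at -0.02 and -0.03 between shNCT and shS100A10_1 or shS100A10_5, and at 0.19 between the hairpins. With 2 arrays a group these values cannot decide it. The 2 shS100A10_5 arrays differed from each other more than other pairs did. The SD of the log2 difference over probe sets was 0.36, against 0.29 for shS100A10_1 and 0.29 for shNCT. Array weights were 0.63 for shS100A10_5, 1.25 for shS100A10_1 and 1.27 for shNCT, while the main fit used a common spread for all groups. Why the counts moved was not tested, and some alternatives also held fewer probe sets or arrays. In an alternative without 1 array, the lone array was assumed to vary like the other groups. Of 1056 values for single genes under the alternatives, 975 stayed on their side of the threshold, 62 lost it and 19 gained it; 19 changed sign, none of them for a gene and comparison past the threshold. All 62 losses came from the 7 calls with shS100A10_5 and the 4 between the hairpins, since only these could lose the threshold. Most of the 975 belonged to genes and comparisons not past it in the main fit. The share of promoters with an E2F match was 47.7% in the shorter window. Few arrays and dim probe sets limit what could be detected.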
